A study of Mus musculus with 6 samples.

Results

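The names mmu-miR-1274a, mmu-miR-1937b, mmu-miR-1937c and mmu-miR-720 (mmu for mouse, left out below except where a name is introduced) entered miRBase as microRNAs (miRNAs) and were later seen as pieces of transfer RNA (tRNA). They were picked by name from the probe annotation of a mouse miRNA array, and all 4 were found among its 690 mouse names. C57BL/6 mice aged 12 days gave the cartilage, which was dissected under the microscope out of the growth plate of the femur. The proliferative, prehypertrophic and hypertrophic zones had 2 arrays each. No genotype or treatment sets the 3 groups apart, so zone is the only labelled difference. Each array received 100 ng of total RNA, labelled with Cy3, from a pool of 5 growth plates. The labels do not say which animals entered which pool, so p-values measure the spread between these 6 arrays, whose number limits the precision.

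A miRNA is cut from a hairpin transcript by Drosha and Dicer and guides Argonaute to messenger RNAs. A tRNA carries an amino acid to the ribosome, and every mature tRNA ends in the letters CCA, which an enzyme adds after transcription. Nucleases such as angiogenin and Dicer can cut tRNAs, and some pieces have the length of miRNAs, so early sequencing surveys named some of them as miRNAs. The name miR-1274a has been traced to the end of a lysine tRNA and miR-720 to that of a threonine tRNA. The array protocol ligates a dye to RNA 3' ends, so fragments and whole tRNAs with a matching end can both give signal. Which of them did so here was not tested.

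None of the 4 names has a mouse miRNA gene in the RefSeq table (assembly GRCm38.p6), whereas 645 of the 690 names on the array matched one. tRNAs are multicopy: that table lists 430 tRNA genes, of which 26 bear symbols for lysine tRNAs and 17 for threonine tRNAs. A signal under one of these names therefore cannot be assigned to a single locus. The names tested together numbered 226, each with both arrays of some zone well above background. The 4 tRNA-like names were among them, and all were well above background on all 6 arrays, by both of their probes and on every spot kept.

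The dissected tissue was checked against markers. Of 6 cartilage miRNAs, 4 (miR-140, miR-140*, miR-455 and miR-455*) were well above background on all 6 arrays, miR-675-3p on 4 and miR-675-5p on none. All 4 skeletal muscle miRNAs, 5 of 8 blood miRNAs and 1 of 2 endothelial miRNAs were so on no array. Summed over the cartilage list, scaled signal was 6495 to 10405 on the proliferative, 6853 to 6951 on the prehypertrophic and 3935 to 4938 on the hypertrophic arrays. The summed scaled signal of the blood list was 103 to 107 on the proliferative, 115 to 120 on the prehypertrophic and 325 to 360 on the hypertrophic arrays, where 8 names at the floor would sum to 101 (the floor is the lowest scaled value allowed, set at the dimmest signals well above background). The red cell miRNA miR-451 averaged 3.72, 4.79 and 7.91 (log2) in the order of maturation, while miR-144, miR-142-3p, miR-142-5p, miR-150 and miR-155 stayed at the floor. Of the other blood names, miR-223 averaged 3.71, 3.81 and 4.59. In contrast, miR-486 was highest in the proliferative zone, at 3.92, 3.66 and 3.84, where the floor is 3.66. It was well above background on only 2 arrays and was not among the tested names, so its order says little. The summed scaled signal of the endothelial list was 25.3, its floor, on each array of the first 2 zones. On the hypertrophic arrays it was 47.3 to 59.9. The part of blood and vessel RNA in the values below was not tested. The titles carry numbers in 2 runs of 3, each with 1 array per zone. Run 1 (numbers 13 to 15) holds replicate 1 of the proliferative and of the prehypertrophic zone and replicate 2 of the hypertrophic zone, and run 2 (numbers 16 to 18) the other arrays. The submitters speak of 2 independent hybridization experiments without saying which arrays belong to which, and no label calls a run a batch. All arrays lay on one slide, with both hypertrophic arrays and the first proliferative array in row 1 and the other arrays in row 2.

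The data show 2 things about these names. Their signal did not pass the test for a difference between any zones, and, under the scaling used here, it was higher on the run 2 than on the run 1 array in every zone. The first says little for so few names, since most tested names did not pass either. Of all tested names 14.6% passed between the hypertrophic and proliferative zones. Between the prehypertrophic and proliferative zones 2.21% did, and between the hypertrophic and prehypertrophic zones 1.33%. The run 2 excess depended on the scaling: without any, miR-1937b and miR-1937c were lower in run 2 in the hypertrophic zone. The values below are processed signals of the brighter probe of a name, in scanner units, scaled to the 75th percentile of the probes well above background on all arrays and given on the log2 scale. Levels of different names are not compared, since each probe has its own response.

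mmu-miR-1937b, one of a lettered series of closely related sequences, gave processed signals of 34997 and 42222 on the proliferative, 47189 and 62594 on the prehypertrophic and 51527 and 54701 on the hypertrophic arrays, where the median local background per array was 18 to 21 and no spot was saturated. After scaling these were 15.23 and 15.77 (log2), 15.50 and 15.83, and 15.64 and 15.34, so the highest arrays of the 3 zones lay close together and the zones overlapped. The zone means were 15.50 ± 0.38 (SD, n = 2) in the proliferative, 15.67 ± 0.23 (SD, n = 2) in the prehypertrophic and 15.49 ± 0.21 (SD, n = 2) in the hypertrophic zone. The order of the means was thus prehypertrophic, proliferative, hypertrophic, and no neighbours in that order differed beyond their spread. The probe held the same rank among all 1928 probes on each of the 6 arrays.

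mmu-miR-1937c, from the same series, had scaled signals of 9.91 and 10.46 on the proliferative, 10.34 and 10.47 on the prehypertrophic and 10.27 and 9.99 on the hypertrophic arrays. Both prehypertrophic arrays lay above both hypertrophic arrays, which made 1 of 4 names whose arrays of these zones did not overlap, beside 66.8% of all tested names in either direction and 32.7% with the hypertrophic arrays lower. For the hypertrophic and proliferative arrays it was 0 of 4 beside 46.9%, and for the prehypertrophic and proliferative arrays 0 of 4 beside 36.3%. The means were 10.19 ± 0.39 (SD, n = 2), 10.41 ± 0.09 (SD, n = 2) and 10.13 ± 0.20 (SD, n = 2) in the order of maturation. Sequences of one lettered series are alike, so the probes of miR-1937b and miR-1937c may detect some of the same RNA, which was not tested.

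mmu-miR-720, the threonine tRNA name, had scaled signals of 10.80 and 11.34 on the proliferative, 10.99 and 11.40 on the prehypertrophic and 11.27 and 10.86 on the hypertrophic arrays. The ranges of all 3 zones overlapped. Its means were 11.07 ± 0.38 (SD, n = 2), 11.20 ± 0.29 (SD, n = 2) and 11.07 ± 0.29 (SD, n = 2), and the first and last of these differed by less than the last printed digit of a log2 unit.

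mmu-miR-1274a, the lysine tRNA name, varied the most of the 4. Its scaled signals were 8.80 and 9.46 on the proliferative, 9.36 and 9.75 on the prehypertrophic and 9.66 and 9.25 on the hypertrophic arrays. The first proliferative array was the lowest of the 6, while the second lay inside the range of the other zones. The means were 9.13 ± 0.47 (SD, n = 2), 9.55 ± 0.28 (SD, n = 2) and 9.46 ± 0.29 (SD, n = 2). Its span over the 6 arrays was 0.96 log2 units, against 0.60 for miR-1937b, 0.56 for miR-1937c, 0.60 for miR-720 and a median of 0.88 over all tested names.

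**Figure D1:**
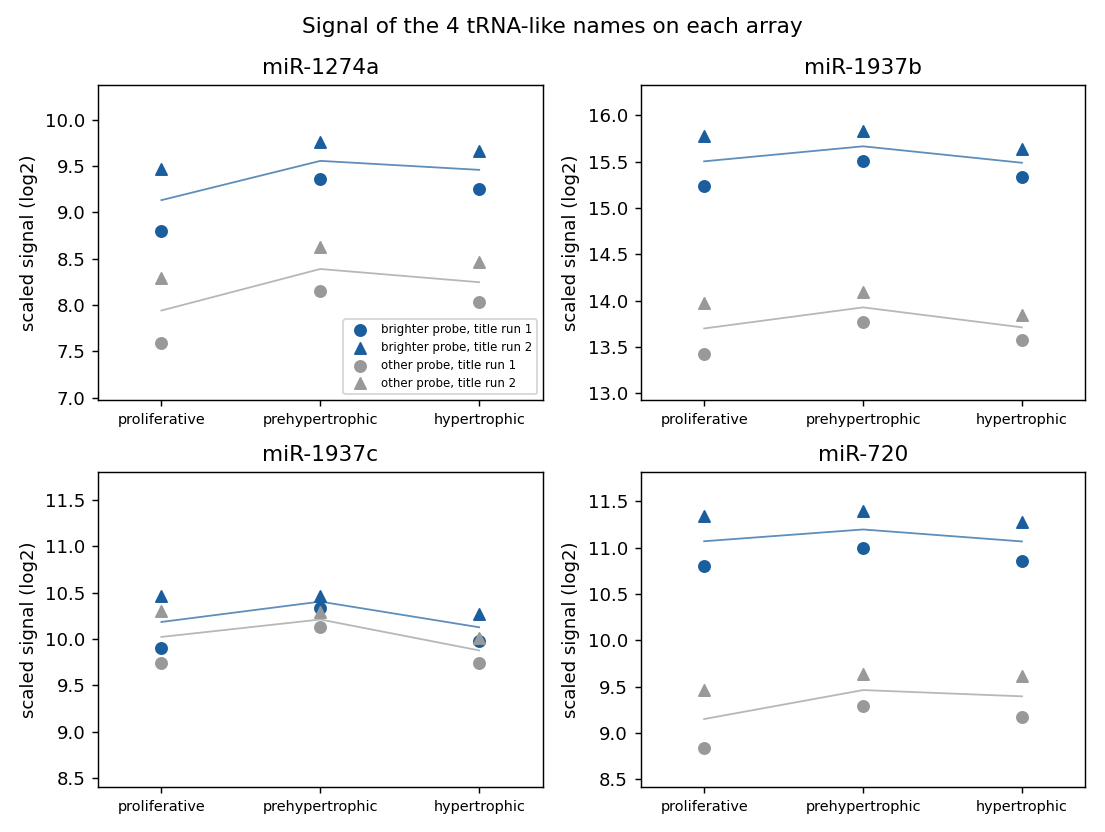
Scaled signal (log2, vertical axis, 1 panel per name and each panel spanning the same range) on the 6 arrays by zone, for the brighter probe (blue) and the other probe (grey), with circles for title run 1, triangles for title run 2 and lines through the zone means. For each probe and zone the triangle lies above the circle, as for miR-1274a in the proliferative zone at 9.46 against 8.80.

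The comparison of zones asked whether these RNAs change as chondrocytes mature. Differences were fitted with limma over all 226 tested names, and p-values were adjusted by Benjamini-Hochberg with a threshold of 0.05. Between the hypertrophic and the proliferative zone, 0 of the 4 names passed, where 14.6% of all tested names did (5.75% higher and 8.85% lower in the hypertrophic zone). The log2 difference was 0.33 for miR-1274a (SE 0.31, adjusted p = 0.595), -0.02 for miR-1937b (SE 0.29, adjusted p = 0.971), -0.06 for miR-1937c (SE 0.28, adjusted p = 0.932) and -0.0020 for miR-720 (SE 0.30, adjusted p = 0.996). Between the prehypertrophic and the proliferative zone, again 0 of 4 passed, beside 2.21% of all tested names. All 4 estimates were positive, at 0.42 for miR-1274a (adjusted p = 0.664), 0.16 for miR-1937b (adjusted p = 0.834), 0.22 for miR-1937c (adjusted p = 0.763) and 0.13 for miR-720 (adjusted p = 0.911).

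Between the last 2 zones 0 of 4 passed, beside 1.33% of all tested names, and the estimates were -0.10, -0.18, -0.28 and -0.13 in the same order (limma adjusted p = 0.83, 0.677, 0.532 and 0.765). An F test over the 3 zones called 0 of 4 and 7.96% of all tested names, with the smallest limma adjusted p of the 4 at 0.592 for miR-1274a. The smallest unadjusted limma p of the 4 in these tests was 0.197, for miR-1274a from the proliferative to the prehypertrophic zone. By p it ranked 65 among the 226 tested names in that comparison. A difference below the threshold does not show equal levels. The 95% intervals between the outer zones ran from 0.783-fold to 2.01-fold for miR-1274a, 0.638-fold to 1.53-fold for miR-1937b, 0.627-fold to 1.47-fold for miR-1937c and 0.633-fold to 1.57-fold for miR-720, so these arrays leave room for a change of that size in either direction.

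**Figure D2:**
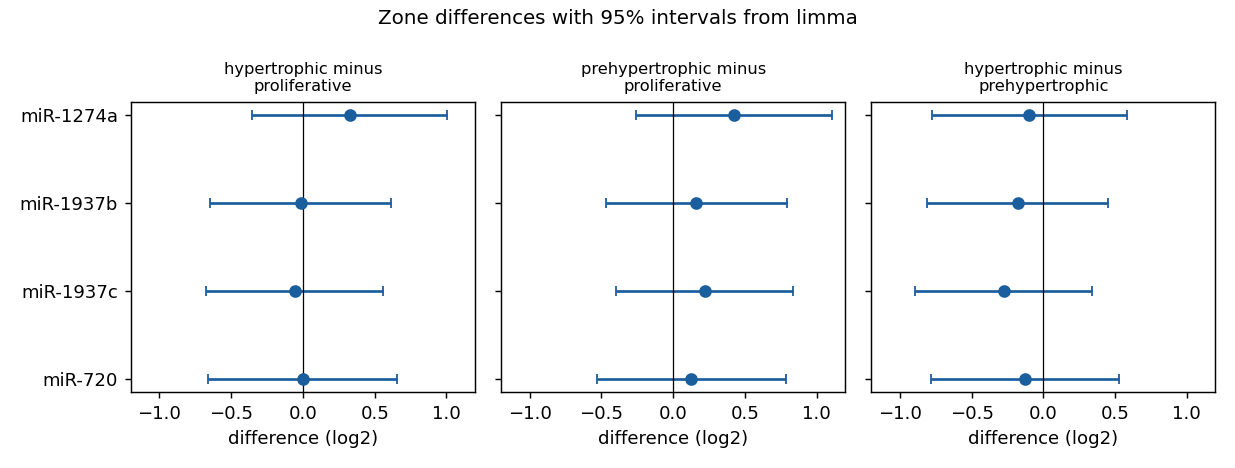
Difference between zones in scaled signal (log2, horizontal axis) for each name (rows) in the 3 comparisons (panels), where points are limma estimates and bars their 95% intervals from 6 arrays. Each interval includes 0, and the point farthest from 0 is that of miR-1274a from the proliferative to the prehypertrophic zone, at 0.42.

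The median of the 4 log2 difference was -0.0088 between the outer zones (all tested names -0.0017), 0.19 from the proliferative to the prehypertrophic zone (all tested names -0.14) and -0.15 between the last 2 zones (all tested names -0.03). For the 199 tested names with a RefSeq mouse miRNA these medians were -0.06, -0.17 and -0.09. Under the scaling used here the 4 thus had positive estimates in the second of these comparisons, where most tested names had negative ones. The sign of the median of all tested names in that comparison depended on the scaling, as given in the last section. Of 23 further tested names with no RefSeq mouse miRNA, 2 were higher and 0 lower in the hypertrophic than in the proliferative zone, with a median of 0.19. A list of 16 names, miR-2132 to miR-2146 and miR-2182, many of them since retired, had 12 tested members, of which 3 were higher and 0 lower in that comparison (median 0.33). Of all tested names 5.75% were higher and 8.85% lower there. Most of the 12 are also names without a RefSeq entry, so the counts of these lists are not separate results. In the prehypertrophic minus proliferative comparison 3 of these 12 had positive estimates, beside 4 of the 4 tRNA-like names and 73 of 226 tested names. Whether the lists differ was not tested.

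Each name was read by 2 probes with 10 spots each, of which 7 to 10 remained per array after outlier spots were left out. Spots of one probe on one array varied with a coefficient of variation of 1.99% to 8.58% for miR-1274a, 3.50% to 14.9% for miR-1937b, 4.23% to 19.2% for miR-1937c and 2.43% to 7.74% for miR-720. The standard error that these spots give to the log2 signal of the brighter probe was at most 0.03, 0.07, 0.09 and 0.02. Spot error leaves out what differs between pools, labelling reactions and arrays. The 2 arrays of a zone differed by 0.13 to 0.67 log2 units.

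Probe agreement was tight for 3 of the 4 names. The log2 gap between the brighter and the other probe varied over the 6 arrays with an SD of 0.03 for miR-1937b and 0.03 for miR-1274a, which rank 3 and 4 from the lowest among 123 names with 2 probes well above background on all arrays. For miR-1937c the SD was 0.04, at rank 8, and the median over the 123 names was 0.10. The zone differences by the 2 probes of each of these 3 names lay within 0.09 log2 units of each other. For miR-1274a, for example, the hypertrophic minus proliferative difference was 0.33 by the brighter and 0.31 by the other probe.

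The probes of miR-720 agreed less, with an SD of 0.12 at rank 73 of 123. The gap was 1.96 and 1.88 on the proliferative, 1.71 and 1.76 on the prehypertrophic and 1.66 and 1.68 on the hypertrophic arrays, so the proliferative arrays lay above the other 4. By its other probe miR-720 was 0.24 log2 units higher in the hypertrophic and 0.31 higher in the prehypertrophic than in the proliferative zone, where the brighter probe gave -0.0020 and 0.13. Averaging the probes gave a hypertrophic minus proliferative difference of 0.12 (limma adjusted p = 0.851). The small zone difference of miR-720 thus depends on which probe is read.

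The authors' deposited table, which adds up the probes of a name, gave the same order of zones as the brighter probe for miR-1274a, miR-1937b and miR-1937c. For miR-720 it put the hypertrophic mean just above the proliferative one, where the brighter probe had them the other way round. In that table the log2 means were 4.48, 5.10 and 4.78 for miR-1274a, 5.94, 6.33 and 5.81 for miR-1937c and 6.24, 6.59 and 6.27 for miR-720, in the order of maturation. For miR-1937b the authors' deposited table gave a prehypertrophic mean of 11.06 and a hypertrophic mean of 10.66, with the proliferative mean between them. The prehypertrophic mean was the highest for each name in the authors' deposited table, as it was by the brighter probe.

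Within each zone the array of run 2 gave the higher scaled signal for all 4 names. The excess in the proliferative, prehypertrophic and hypertrophic zones was 0.67, 0.40 and 0.41 log2 units for miR-1274a, 0.54, 0.33 and 0.30 for miR-1937b, 0.55, 0.13 and 0.29 for miR-1937c and 0.54, 0.41 and 0.41 for miR-720. This was 3 of 3 zones for 4 of 4 names, where 32.3% of all tested names were higher in run 2 in all 3 zones and 11.9% lower in all 3. The comparison was chosen after these values were seen.

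With zone in the limma fit, run 2 exceeded run 1 by 0.49 log2 units for miR-1274a (SE 0.14, adjusted p = 0.235), 0.39 for miR-1937b (SE 0.14, adjusted p = 0.26), 0.32 for miR-1937c (SE 0.15, adjusted p = 0.26) and 0.45 for miR-720 (SE 0.14, adjusted p = 0.235). None of the 4 passed after adjustment over the 226 names, and 3 of 4 had an unadjusted p under 0.05, as did 38 of 226. The 2 names past the threshold (0.885%) were miR-342-3p, at 2.14, and miR-671-3p, at 4.38 (limma adjusted p = 9.09e-04 for each), named after their values were seen. The median run difference over all tested names was 0.10, with quartiles of -0.19 and 0.30, so all 4 tRNA-like names lay above the upper quartile.

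**Figure D3:**
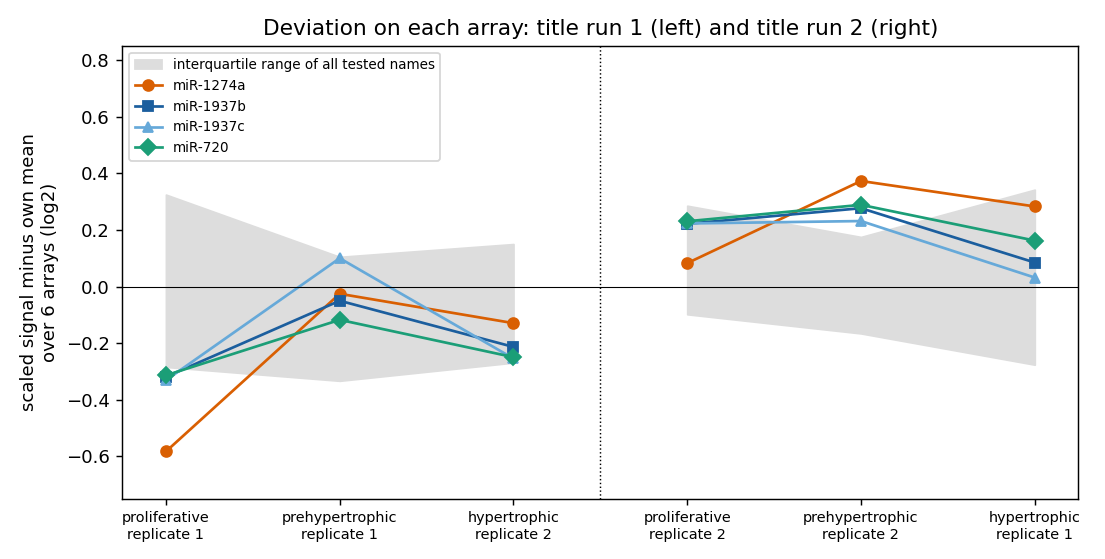
Deviation of each name from its own mean over the 6 arrays (log2, vertical axis), with the arrays of title run 1 on the left and of title run 2 on the right, and the interquartile range of all 226 tested names in grey. All 4 names lie above 0 on the 3 arrays of run 2 and below 0 on those of run 1, except miR-1937c at 0.10 on the first prehypertrophic array.

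Zone differences were also taken within each run. The hypertrophic minus proliferative difference in runs 1 and 2 was 0.11 and -0.14 for miR-1937b, 0.08 and -0.19 for miR-1937c and 0.06 and -0.07 for miR-720, so for these 3 its sign turned between the runs. That of miR-1274a was 0.45 and 0.20. The prehypertrophic minus proliferative difference stayed positive in both runs for each name, at 0.56 and 0.29 for miR-1274a, 0.27 and 0.06 for miR-1937b, 0.43 and 0.0085 for miR-1937c and 0.20 and 0.06 for miR-720. The values of miR-1274a and miR-1937c in run 1 were larger than their run differences given above. With the run as a block the standard errors of the zone differences fell to 0.17 to 0.19, and 0 of 4 passed in any comparison. Of all tested names 20.4% passed in that fit between the outer zones, 2.65% between the prehypertrophic and proliferative zones and 2.21% between the last 2 zones. The smallest limma adjusted p was then 0.241, for miR-1274a from the proliferative to the prehypertrophic zone.

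The slide row bears on the same comparisons. Within row 1 the hypertrophic arrays exceeded the first proliferative array by 0.66 log2 units for miR-1274a, 0.25 for miR-1937b, 0.22 for miR-1937c and 0.27 for miR-720. Within row 2 the prehypertrophic arrays differed from the second proliferative array by 0.09, -0.11, -0.06 and -0.15. The prehypertrophic and hypertrophic arrays share no row, so their difference and the row cannot be told apart. Only the proliferative pair spans both rows, and its arrays also differ in title run. The prehypertrophic and hypertrophic pairs each lay in 1 row, and under the scaling used here run 2 was higher in both. Without scaling the run 2 minus run 1 differences of the hypertrophic pair were 0.03, -0.09, -0.10 and 0.03 in the same order of names. Those of the prehypertrophic pair were 0.48, 0.41, 0.21 and 0.49. The part of the row in the run difference was not tested.

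Control signals were compared between the runs in the same way. Of 4 spike-in RNAs, 2 gave signals that were 0.25, 0.31 and 0.01 log2 units (dmr_285) and 0.11, 0.13 and 0.13 (dmr_31a) higher in run 2 in the 3 zones. The others did not differ one way, at 0.17, 0.27 and -0.15 for dmr_6 and -0.01, -0.07 and 0.02 for dmr_3. The 75th percentile used for scaling was 0.27 and 0.38 lower in run 2 in the proliferative and hypertrophic zones (differences of -0.27 and -0.38) and 0.08 higher in the prehypertrophic zone. Without any scaling the run difference was 0.30 for miR-1274a, 0.20 for miR-1937b, 0.13 for miR-1937c and 0.26 for miR-720. Before scaling, miR-1937b and miR-1937c were lower in run 2 in the hypertrophic zone, by differences of -0.09 and -0.10. In that zone miR-1274a and miR-720 were higher in run 2 by only 0.03 each. Scaled to dmr_285 the run differences were 0.11, 0.0077, -0.06 and 0.07, and to dmr_31a 0.18, 0.07, 0.0083 and 0.14. The excess of run 2 thus depended on the scaling, and the part of labelling in it was not tested.

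**Figure D4:**
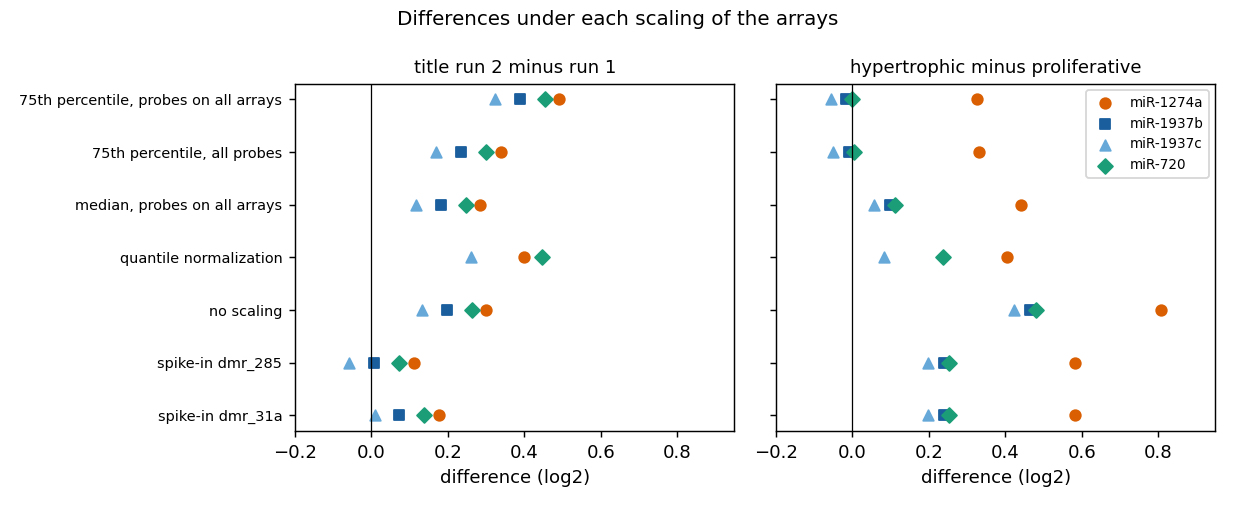
Difference between title runs (left) and between the hypertrophic and proliferative zones (right) in log2 units (horizontal axis) for each name under 7 ways of scaling the arrays (rows). The run difference of miR-1274a falls from 0.49 in the top row to 0.11 with the spike-in dmr_285, and the zone difference of miR-720 rises from near 0 to 0.48 without scaling.

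miR-1937b, miR-1937c and miR-720 were near each other in their pattern over the 6 arrays. After each name was centred on its own mean, the root mean square difference between miR-1937b and miR-720 was 0.04 log2 units, and each was the other's closest name among 225. For miR-1937c the closest name was miR-1937b, at 0.07, and miR-720 had rank 3, at 0.11. miR-1274a stood further off, at 0.16 from miR-1937b, 0.18 from miR-1937c and 0.15 from miR-720, which placed them at ranks 7, 9 and 6 among its 225 others. Seen from those 3 names, miR-1274a had ranks 12, 17 and 9. The median distance to all other names was 0.36 to 0.42. This is a description over 6 arrays that share one slide and one scaling.

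Outside the 4, the closest names by the same measure were miR-1939 (0.05), miR-421 (0.08) and miR-1198 (0.14) for miR-1274a. For miR-1937b they were miR-466g (0.09), miR-466i (0.11) and miR-2142 (0.12), and for miR-1937c miR-466g (0.07), miR-2142 (0.11) and miR-212 (0.13). For miR-720 they were miR-466i (0.12), miR-466g (0.12) and miR-1939 (0.13). Of these 7 names, miR-1939 and miR-2142 had no RefSeq mouse miRNA. miR-1939 shared with miR-1274a a low first proliferative array, at -0.54 from its mean against -0.58. None of the 7 passed in a zone comparison. They were picked for their likeness to the 4 over these same arrays, so this is no separate result.

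Pooled over the zones, the SD of array pairs was 0.36 for miR-1274a, 0.29 for miR-1937b, 0.26 for miR-1937c and 0.32 for miR-720, against a median of 0.26 over all 226 tested names and 0.26 over the 186 names well above background on all 6 arrays. Of the 4, miR-1937c lay below that median. The span over all 6 arrays gave another picture: those of miR-1937b, miR-1937c and miR-720 lay below the lower quartile of all tested names, 0.68 log2 units, and that of miR-1274a above their median of 0.88.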

How the data were processed

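One-colour Agilent miRNA arrays of 6 samples, on 1 slide, were read. The deposited intensity per spot is Agilent's processed signal with the background already taken off (Feature Extraction 10.7.3.1, per the file headers). The submitters name GeneSpring as their analysis software, per the labels. The authors' log2 table was set against the scanner files: each column was log2 of the total signal per name, limited to at least 1, less a constant for that array. This fixed its scale and direction, and its column medians ran from -4.94 to -4.25.

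The 13800 miRNA spots of an array belong to 1928 probes. Between 384 and 515 outlier spots per array were dropped and the others averaged by probe. A probe passed detection if over 50% of its spots were marked well above background (24.2% to 27.9% of spots were). Scaling used the 75th percentile of the 342 probes that passed on all 6 arrays. Values under 12.7 scaled units, or 3.66 in log2, were raised to that floor, which no tRNA-like name reached. The brightest probe stood for a name. Zone was the factor in limma 3.58.1 under R 4.3.3 (lmFit and eBayes, 3 residual and 7.83 prior degrees of freedom), checked on simulated data. The normexp alternative used the median spot signal.

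Runs of title numbers and spike-in scalings were added after the data were seen. The members and lists were chosen with earlier results of these data known. Named beside the members are the 3 closest other names of each, by root mean square difference over the arrays.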

Additional observations from a re-analysis of the deposited data

How the results depend on the processing

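Over 21 alternatives, of which 19 were planned, 0 of the 4 names passed the limma threshold in any zone comparison or in the F test, and the smallest adjusted p of 249 refitted zone differences was 0.0971 (miR-1274a between the outer zones, without scaling). Over all tested names the calls in these fits ranged from 0 to 46. Without hypertrophic replicate 1 they were 2, 0 and 1 of 226 in the 3 comparisons (33, 5 and 3 with all arrays), without hypertrophic replicate 2 they were 1, 0 and 1, and with no filter on dim names 1, 0 and 1 of 690, so 0 of 4 says little there. Quantile normalization gives the same value on every array to a probe whose rank is the same on every array. The probe of miR-1937b was such a probe, so its differences there were fixed by the method and are not given. The replicate numbers follow accession order and pair no arrays. The pairing that the title runs give was fitted as a block and called 0 of the 4.

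Signs of these small differences turned in 48 of the 249. For the hypertrophic minus proliferative difference of miR-1937b, miR-1937c and miR-720 the values were 0.098, 0.056 and 0.11 with median scaling, 0.47, 0.42 and 0.48 without scaling, 0.15, 0.085 and 0.15 with normexp, 0.25, 0.22 and 0.27 with the slide row as a block, and 0.24, 0.20 and 0.25 with either spike-in. With quantile normalization the last 2 names gave 0.082 and 0.24. miR-720 gave 0.0035 with the 75th percentile of all probes, 0.028 by the authors' table and 0.12 with the mean of all probes. Without scaling, the hypertrophic minus prehypertrophic difference was 0.047 for miR-1274a and 0.015 for miR-720. With the row as a block it was 0.57, 0.36, 0.28 and 0.42 for miR-1274a, miR-1937b, miR-1937c and miR-720, and the prehypertrophic minus proliferative difference was -0.11, -0.057 and -0.15 for the last 3. The row block rests on the proliferative pair, whose arrays also differ in title run. Its differences from the proliferative zone equal those found when the proliferative array of the other row is left out, so they are not separate results. The median of all names between the outer zones shifted from -0.0017 to 0.45 without scaling, 0.11 with median scaling, -0.17 with normexp and 0.24 with either spike-in, so the 3 names moved with it, except under normexp. The run difference of miR-1937c was -0.057 scaled to dmr_285. Of 79 refitted run differences none passed, and the smallest limma adjusted p was 0.0528, with normexp. Of all tested names that normexp fit called 4 of 226 between the runs, and the fit with the scaling used above called 2 of 226. That none of the 4 names passed thus says little.

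Leaving out 1 array at a time moved the hypertrophic minus proliferative difference over -0.0058 to 0.66 (miR-1274a), -0.29 to 0.25 (miR-1937b), -0.33 to 0.22 (miR-1937c) and -0.27 to 0.27 (miR-720), the lowest always without the first and the highest without the second proliferative array. The prehypertrophic minus proliferative difference ranged over 0.091 to 0.76, -0.11 to 0.43, -0.057 to 0.50 and -0.15 to 0.40, and the hypertrophic minus prehypertrophic difference over -0.30 to 0.11, -0.34 to -0.014, -0.42 to -0.13 and -0.34 to 0.077. A zone left with 1 array was assumed to vary like the others. The cause of these shifts was not tested. No member was near background on any array.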
